A study of Mus musculus with 6 samples.

Results

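Integrins are the transmembrane receptors by which cells hold on to the extracellular matrix, and laminins are the basement membrane proteins that several of them bind. The set examined here is 35 genes, 25 integrin chains and 10 laminin chains, out of 17178 gene symbols named on the array. The genes were chosen by symbol, with earlier results of these data known. Every probe whose transcript accession belongs to one of these genes was used, which gave 50 probes for 31 genes. No probe was matched by accession to Itga10, Itgb8, Lama3 or Lamc1. Testing required a signal well above background on every one of the 3 arrays of a genotype, WT or dt27J, and 38 probes for 27 genes passed (21 integrin and 6 laminin chains). Itga2, Itga2b, Lama1 and Lamb3 had probes that did not pass.

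RNA came from dorsal root ganglia, which hold the cell bodies of sensory neurons with their satellite glia and Schwann cells, of C57BL/6 mice at postnatal day 4. The 3 wild-type (WT) littermate controls were compared with 3 animals carrying dt27J, an allele of Dst, the gene for the cytoskeletal linker dystonin. The sources used here do not give the zygosity of the dt27J animals. The series calls this age pre-phenotype, and the comparison asks how ganglion transcripts differ by genotype at that stage. Each animal gave 1 single-colour array, and the animals came from 2 litters. WT 1, WT 2, dt27J 1 and dt27J 2 carry a first label date, and WT 3 and dt27J 3 a second one. Slide and scan follow that date exactly, and the sources used here do not say how dates and litters relate.

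An integrin is a pair of 1 alpha and 1 beta chain, and the pair sets the ligand. The alpha3, alpha6 and alpha7 chains with beta1, and alpha6 with beta4, bind laminins. The alphav, alpha5 and alpha8 chains bind proteins such as fibronectin and vitronectin, alpha1, alpha2, alpha10 and alpha11 bind collagens, and the beta2 and beta7 families serve leukocytes. A laminin joins an alpha, a beta and a gamma chain. Schwann cells and satellite glia of peripheral ganglia and nerves, and blood vessels, lie on laminin basement membranes. Alpha6 beta4 is also the integrin of the hemidesmosome, the junction that holds epithelial cells to their basement membrane, where an epithelial isoform of dystonin and plectin tie it to keratin filaments; in nerve, alpha6 beta4 is a receptor of myelinating Schwann cells.

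On each array 63.1% to 71.5% of probes gave signal well above background. Dst, the gene of the dt27J allele, was lower in dt27J on all 3 of its probes (adjusted p between 0.0341 and 0.0454, limma). The brightest probe was lower by 2.68 on the log2 scale, and the sources used here do not say where in the gene the allele lies. All 13 sensory neuron markers tested were well above background on every array. Transcripts of neighbouring tissue differed among the WT arrays. The summed signal of 12 spinal cord markers, in units of each array's 75th percentile, was 31.4 in WT 1 and 25.1 in WT 2, against 3.98 in WT 3 and 3.57 to 5.06 in dt27J. That of 18 skeletal muscle markers was 31.9 and 31.5 in WT 1 and WT 2, against 121.7 in WT 3 and 104.5 to 200.4 in dt27J. In bulk tissue, more cells of a type and more RNA per cell cannot be told apart.

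Integrin and laminin transcripts tended to higher values in dt27J ganglia, with few single genes past the threshold. Values are log2 signals relative to the array's 75th percentile, a difference is dt27J minus WT, and a gene is represented by its tested probe with the highest mean signal. Of the 27 genes, Itgb3 and Lamb1 rose at an adjusted p under 0.05, and none fell by its brightest probe, although 1 of 3 Itga3 probes did. Over all 26248 tested probes 1.31% rose and 1.88% fell (3.19% in all), so the share of members that rose was above that of all probes, on a count of 2 genes. The fold change was positive for 22 of the 27 members, against 46.4% of all tested probes. Its median was 0.44 for the 21 integrins and 0.71 for the 6 laminins, beside -0.050 over all tested probes. After normexp, another background correction, the integrin median was 0.15 and the laminin median 0.57, and with high local backgrounds replaced they were 0.17 and 0.62. At an unadjusted p under 0.05, 10 members were higher and 2 lower, where 12% and 15.7% of all tested probes were. Every dt27J array lay above every WT array for 7 members and below for 2, beside 12.8% and 16% of all tested probes. Itgax, counted as higher in both of these comparisons, was tested only because its dt27J arrays were well above background, with 1 WT array so. Of the 25 members well above background on all 6 arrays, 20 had a positive fold change.

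The shift was larger in the first label date. Relative to the WT mean of each gene, the median over the integrins was 0.76 in dt27J 1, 0.53 in dt27J 2 and -0.12 in dt27J 3, and over the laminins 1.02, 0.84 and 0.17. The same medians lay between -0.15 and 0.076 on the WT arrays. So dt27J 3 stood close to WT for the integrins and only slightly higher for the laminins. With WT 1 and WT 2 left out, a setting chosen after the data were seen that leaves WT 3 against dt27J 3, the medians were 0.063 and 0.19. These medians rest on 1 array per genotype.

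**Figure D1:**
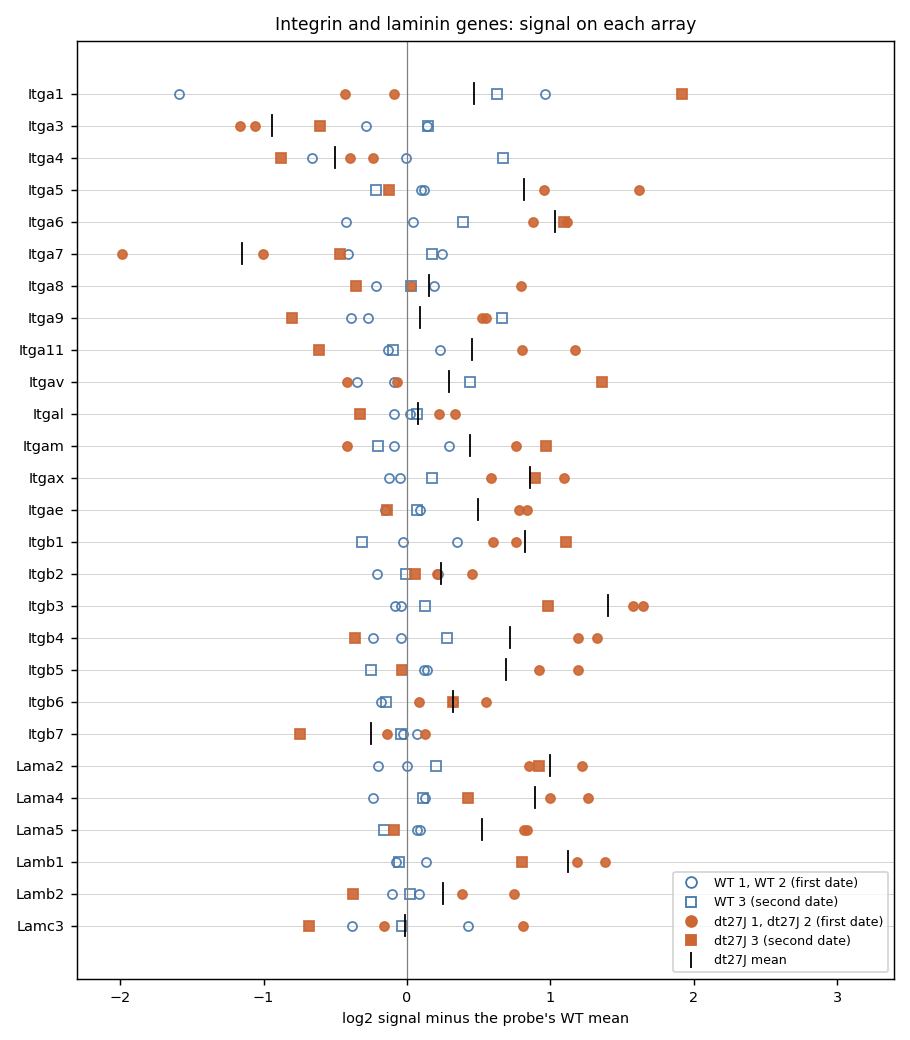
The 27 tested genes in rows, with the signal of each array as the log2 difference from the gene's WT mean on the x axis; open symbols are WT, filled symbols dt27J, squares the second date, and the black bar is the dt27J mean. For Itgb3 and Lamb1 all dt27J symbols lie to the right of all WT symbols, and for Itga3 and Itga7 all lie to the left; for Itgb4 and Itga9 the dt27J square lies left of the WT symbols.

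Lamb1, the beta1 chain found in most embryonic and vascular laminins, was the laminin gene that rose. Its log2 signal was 3.19, 2.98 and 3.00 in WT 1 to 3 and 4.43, 4.24 and 3.86 in dt27J 1 to 3. The groups did not overlap, and the lowest dt27J array was that of the second date. The difference was 1.12 (SE 0.20, 95% interval 0.64 to 1.61), a 2.18-fold rise (adjusted p = 0.0472, limma), and it was 1.25 within the first date and 0.86 within the second. The call is lost when WT 1 (adjusted p = 0.248), WT 2 (0.165), dt27J 1 (0.190) or dt27J 2 (0.107) is left out, without the date block (0.0630), with the replicate number as block (0.111) and without the filter on dim probes (0.0933).

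None of the other tested laminin chains passed. Lama2, the alpha2 chain of muscle and Schwann cell laminin, whose loss causes a muscular dystrophy with neuropathy, had signals of -0.53, -0.33 and -0.13 in WT and 0.89, 0.51 and 0.58 in dt27J. Its groups did not overlap either, and its difference of 0.995 (SE 0.22) stood just outside the threshold (adjusted p = 0.0571). Lama4, a chain of vessel and nerve laminins, had 3 tested probes with differences of 0.89, 0.91 and 1.17 (adjusted p between 0.0788 and 0.0885), on each of which every dt27J array lay above every WT array. Lama5, a chain of mature basement membranes, stood at 0.52 (SE 0.22), Lamb2, a chain of synaptic and kidney laminins, at 0.25 (SE 0.27) and Lamc3 at -0.013 (SE 0.38). The sign of Lamc3 turned under other scalings, to 0.15 after quantile normalization and 0.062 in the authors' series table. For Lama5 the dt27J arrays of the first date lay at 0.25 and 0.26, above WT at -0.73 to -0.48, while dt27J 3 lay among the WT arrays at -0.66.

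Upstream sequence is shown for Lamb1, which rose, for Lama2, just outside the threshold in the same direction, and for Itga3, which had the probe that fell, so that chains of opposite direction can be set side by side. The RefSeq promoter table (GRCm38.p6) held 23 of the 35 members, and Itgb3 was not matched. Each line gives the 250 bases before the annotated start, 5′ to 3′ on the gene's strand, with matches to the GC box (GGGCGG), the CCAAT box (CCAAT) or the TATA box (TATAAA) on either strand in capitals; no capital run here joins overlapping matches.
Lamb1, chr12:31265043-31265292, + strand: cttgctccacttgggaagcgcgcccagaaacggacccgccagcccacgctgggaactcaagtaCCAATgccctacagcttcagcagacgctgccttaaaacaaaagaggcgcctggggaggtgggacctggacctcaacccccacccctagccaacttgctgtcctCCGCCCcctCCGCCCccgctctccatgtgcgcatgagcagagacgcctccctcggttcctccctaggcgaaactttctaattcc
Lama2, chr10:27616943-27617192, - strand: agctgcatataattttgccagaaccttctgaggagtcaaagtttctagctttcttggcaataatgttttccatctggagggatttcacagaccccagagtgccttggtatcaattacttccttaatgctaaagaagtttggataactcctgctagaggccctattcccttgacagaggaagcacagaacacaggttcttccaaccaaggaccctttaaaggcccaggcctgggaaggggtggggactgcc
Itga3, chr11:95076715-95076964, - strand: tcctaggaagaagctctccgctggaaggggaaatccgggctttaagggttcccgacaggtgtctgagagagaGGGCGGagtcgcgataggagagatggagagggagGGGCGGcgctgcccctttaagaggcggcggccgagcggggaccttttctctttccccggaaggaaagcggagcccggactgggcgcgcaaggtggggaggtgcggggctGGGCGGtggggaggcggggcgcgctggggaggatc
The Lamb1 stretch is 62% G and C and holds 2 GC boxes and 1 CCAAT box, the Lama2 stretch is 47.2% G and C and holds none of the 3 motifs, and the Itga3 stretch is 67.6% G and C and holds 3 GC boxes. A second Itga3 start in the table has 1 GC box and 1 CCAAT box. Of all 32851 stretches of this length that RefSeq gave, 32.7% hold a GC box, 33.8% a CCAAT box and 12.4% a TATA box, and among the 26 member stretches these counts were 9, 4 and 0. The matches describe letters only, and no binding was measured.

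**Figure D2:**
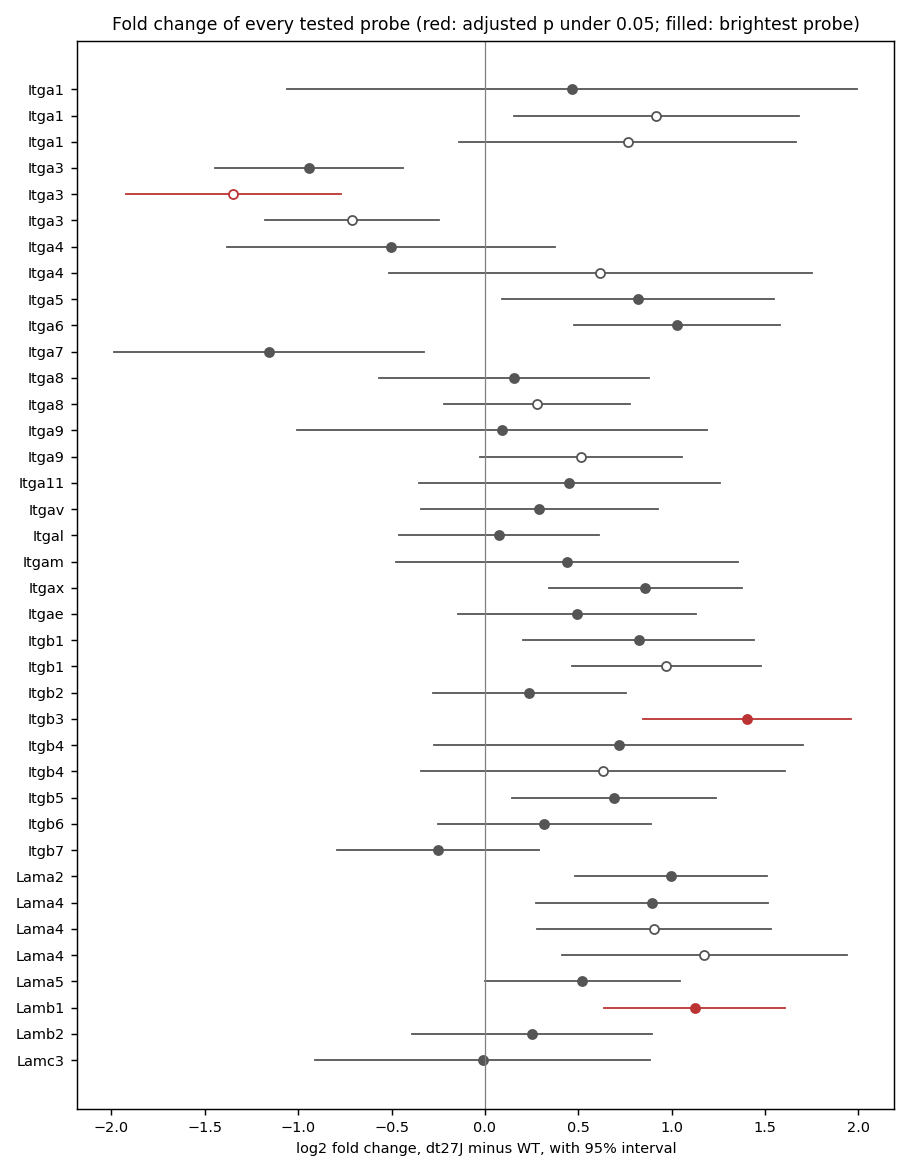
Every tested probe of the members in rows, with its log2 fold change (dt27J minus WT, points) and 95% interval (lines) on the x axis; filled points mark the brightest probe of a gene and red an adjusted p under 0.05. Red marks Itgb3 at 1.40, Lamb1 at 1.12 and the second Itga3 probe at -1.35, and the Itga4 probes lie on opposite sides of 0.

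Among the laminin-binding integrins the alpha chains differed in direction. Itga6, the alpha6 chain, had signals of 0.24, 0.71 and 1.06 in WT and 1.78, 1.55 and 1.76 in dt27J, so its groups did not overlap. Its difference was 1.03 (SE 0.23, 2.04-fold) and missed the threshold (adjusted p = 0.0582, limma); it passed in the authors' series table (1.02, adjusted p = 0.0423) and after normexp background correction (0.95, adjusted p = 0.0386). Itga3, the alpha3 chain, was lower on all 3 of its probes, with no overlap on any. The probe that fell had signals of -1.72, -1.34 and -1.38 in WT and -3.24, -2.97 and -2.27 in dt27J, a difference of -1.35 (SE 0.24, 2.54-fold, adjusted p = 0.0472). The brightest probe stood at -0.94 (SE 0.21, adjusted p = 0.0582) and the dimmest at -0.71 (SE 0.20, adjusted p = 0.0801). With the mean of a gene's probes Itga3 passed (adjusted p = 0.0486).

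Itga7, the alpha7 chain, best known as the laminin receptor of skeletal muscle, was lower in dt27J, at -1.70, -0.72 and -0.18, than in WT, at -0.12, 0.53 and 0.46. The groups did not overlap, but dt27J 3 lay close to the lowest WT array, and the difference of -1.15 (SE 0.35) did not pass (adjusted p = 0.0950). All 18 skeletal muscle markers had a positive fold change in the same samples (median 1.69), and their part in the value of Itga7 was not tested. Itgb1, the beta chain shared by all these alpha chains, had signals of 0.999, 1.38 and 0.71 in WT and 1.79, 1.63 and 2.14 in dt27J. Its probes stood at 0.82 (SE 0.26, adjusted p = 0.103) and 0.97 (SE 0.21, adjusted p = 0.0572), and both kept every dt27J array above every WT array.

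Itgb4, the beta4 chain that pairs with alpha6 only, behaved alike on its 2 probes and differently in the 2 dates. The brighter probe read 2.58, 2.39 and 2.90 in WT, 3.95 and 3.82 in dt27J 1 and 2, and 2.26 in dt27J 3. The first-date arrays of dt27J were thus the highest and dt27J 3 the lowest of all 6. The difference was 0.72 (SE 0.41, adjusted p = 0.303), and it was 1.40 within the first date and -0.64 within the second (interaction -2.04, SE 0.32, adjusted p = 0.0547). The second probe gave 0.63, with 1.31 and -0.71 within the dates. Itga6, its partner, kept its sign in both dates, at 1.19 and 0.71.

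The hemidesmosome partners of this integrin went in both directions. Of 7 tested partners, 1 rose, 1 fell and 2 had a positive fold change, with a median of -0.43. Erbin, an adaptor that binds beta4 and the epithelial dystonin isoform, rose by 1.08 (SE 0.19, adjusted p = 0.0472), from 0.89 to 1.06 in WT to 1.93 to 2.11 in dt27J, with like differences in both dates (1.04 and 1.14). Dst was the partner that fell. Plec, which encodes plectin, stood at -0.71 (SE 0.31), with -1.05 and -0.027 within the dates. Col17a1, the transmembrane collagen of hemidesmosomes, stood at 0.68 (SE 0.39), with 1.28 and -0.54 within the dates. The laminin-binding tetraspanin partner Cd151 stood at -0.049 (SE 0.32). The keratins Krt5 and Krt14, markers of the epidermal basal layer, stood at -0.55 and -0.43. Plec, Col17a1, Cd151 and Krt14 are named here to complete the list, a choice made after their values were seen.

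**Figure D3:**
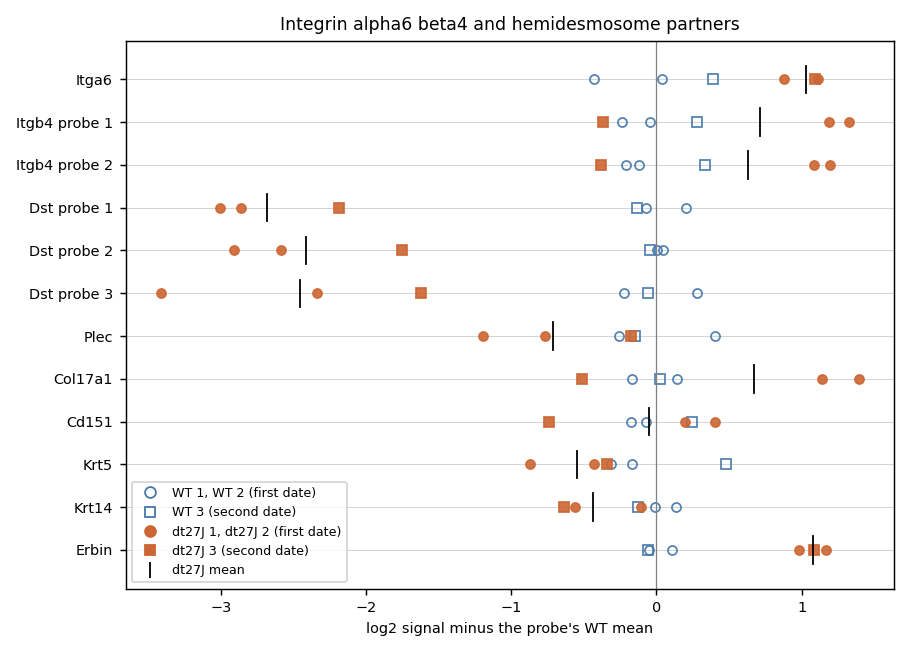
Probes of Itga6, Itgb4, Dst and the other hemidesmosome partners in rows, with the log2 signal of each array relative to the probe's WT mean on the x axis; open symbols are WT, filled symbols dt27J, squares the second date, and the bar is the dt27J mean. Itga6 and Erbin have every dt27J symbol to the right of WT and Dst every one to the left, whereas the dt27J square of Itgb4 lies at the left edge of its row.

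Itgb3 had the largest difference of the 27 members by their brightest probes. The beta3 chain pairs with alphav in vessels and bone and with alphaIIb in platelets, and binds vitronectin, fibronectin and fibrinogen. Its signal was 2.01, 2.05 and 2.22 in WT and 3.74, 3.67 and 3.08 in dt27J. The groups lay apart, with dt27J 3 nearest to WT. The rise was 1.40 (SE 0.23, 95% interval 0.85 to 1.96), or 2.64-fold (adjusted p = 0.0466, limma), and it was 1.67 within the first date and 0.86 within the second. The call is lost when WT 1 (adjusted p = 0.248), WT 2 (0.160), dt27J 1 (0.187) or dt27J 2 (0.0987) is left out, without the date block (0.0586), with the replicate number as block (0.110) and without the filter on dim probes (0.0944).

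The chains that pair with beta3 did not stand out. Itgav, the alphav chain, had signals of -0.65, -0.39 and 0.14 in WT and -0.72, -0.37 and 1.06 in dt27J, so the groups overlapped and the arrays of the second date were highest in each. Its difference was 0.29 (SE 0.27), and it was -0.023 within the first date and 0.92 within the second. Itga2b, the platelet chain alphaIIb, was well above background on 2 of 3 arrays in each genotype and was not tested. Of 7 platelet markers tested, 6 had a positive fold change and 1 fell, Gp1bb at -1.37 (SE 0.23, adjusted p = 0.0472). None rose, with 4 higher at an unadjusted p under 0.05 (limma), beside 12% of all tested probes. Their median was 1.02, with 1.86 within the first date and -0.16 within the second. Their summed signal was 4.29 to 4.93 in WT, 9.41 and 8.05 in dt27J 1 and 2, and 4.06 in dt27J 3, and every one on the array was well above background at least once. Their part in the rise of Itgb3 was not tested.

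The other chains of this ligand class had smaller differences. Itgb5, a further partner of alphav, had signals of 3.16, 3.14 and 2.77 in WT and 3.94, 4.21 and 2.99 in dt27J, with a difference of 0.69 (SE 0.23, adjusted p = 0.115). Only dt27J 3 overlapped with WT. Itga5, the fibronectin receptor chain, showed the same order, with dt27J 1 and 2 at -1.57 and -2.23, dt27J 3 at -3.31 and WT between -3.41 and -3.07 (difference 0.82, SE 0.31, adjusted p = 0.146). Itga8, whose product binds nephronectin, stood at 0.16 and 0.28 on its tested probes. Itgb6, an epithelial chain, stood at 0.32 (SE 0.24), and its other probes were well above background on no array.

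Collagen-binding and other beta1-linked alpha chains gave no call. Itga11, a collagen receptor of mesenchymal cells, had signals of 1.68, 1.31 and 1.34 in WT and 2.24, 2.61 and 0.83 in dt27J, a difference of 0.45 (SE 0.34), with dt27J 3 the lowest array of all. Itga1, a collagen receptor of vessels and muscle, stood at 0.47, 0.92 and 0.77 on its probes. Its brightest probe spread widely within WT, from -5.02 to -2.47, and stood at -0.073 after normexp, and the others placed dt27J 1 and 2 above all WT arrays. The probes of Itga4, a receptor for Vcam1 and fibronectin, disagreed, at -0.50 (SE 0.37) for the brighter and 0.62 (SE 0.48) for the dimmer. The dimmer probe was tested only because its dt27J arrays were well above background, with 2 WT arrays so. Itga9, a receptor for tenascin-C among others, stood at 0.091 (SE 0.46) on its brighter probe and 0.51 (SE 0.23) on the other.

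None of the leukocyte integrins passed. Of 6 tested chains, 5 had a positive fold change, with a median of 0.34. Itgax, the CD11c chain of myeloid cells, was well above background on all dt27J arrays and on 1 WT array, with signals of -5.75, -5.68 and -5.46 in WT and -4.53, -5.04 and -4.73 in dt27J, and a difference of 0.86 (SE 0.22, adjusted p = 0.0694). It passed after quantile normalization and stood at 0.12 after normexp. Itgam, the CD11b chain of macrophages and granulocytes, stood at 0.44 (SE 0.38), Itgae at 0.49 (SE 0.27), Itgb2, the beta chain shared by leukocytes, at 0.24 (SE 0.22), Itgal, a lymphocyte chain, at 0.076 (SE 0.22) and Itgb7, a gut-homing lymphocyte chain, at -0.25 (SE 0.23). Beside them, 11 of 12 macrophage markers had a positive fold change (median 0.46) and 1 rose, and their summed signal was 9.86 to 10.4 in WT and 10.3 to 20.9 in dt27J. Their part in the leukocyte integrin values was not tested.

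For 10 of the 27 members the sign differed between the dates, beside 43.2% of all tested probes. The difference was positive in both dates for 14 and negative for 3, beside 24.5% and 32.3% of all tested probes. Positive in both were all of Itga6, Itgb1, Itgb3, Itgb5, Lama2, Lama4, Lama5 and Lamb1. The first-date difference was the larger in size for 17 members, beside 49.3% of all tested probes. The interaction of genotype and date passed for 1 member, Itga9 (0.831% of all tested probes), and the date effect for none (0.107%). For the interaction, 8 members and 7216 of the 26248 tested probes had an unadjusted p under 0.05 (limma). For the date effect, 5 members and 4015 of the 26248 tested probes had an unadjusted p under 0.05 (limma).

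**Figure D4:**
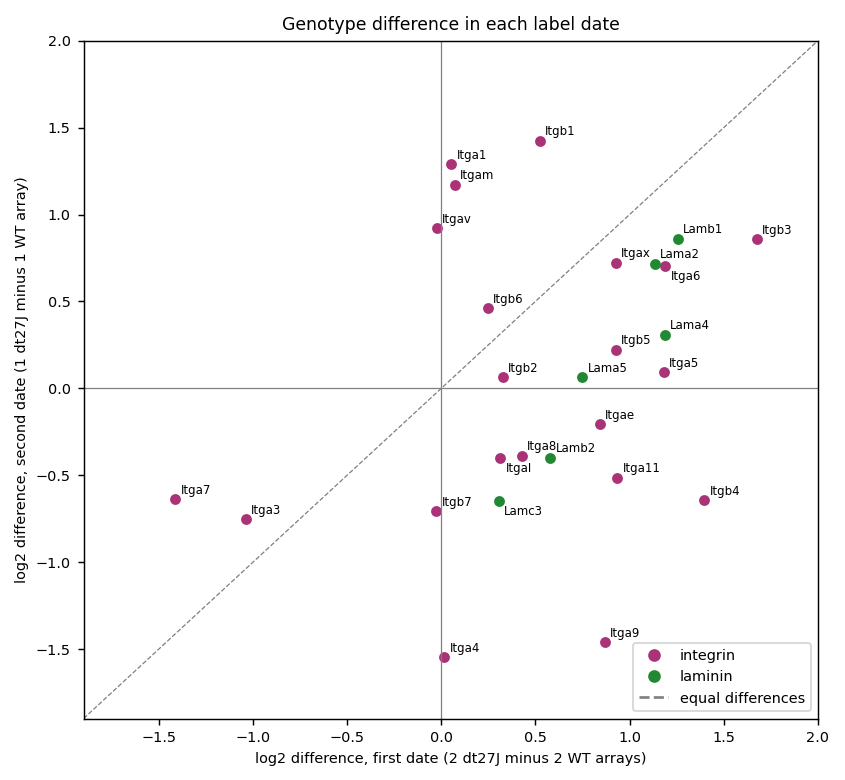
Genotype difference of each tested member within the first label date (x axis, 2 arrays per genotype) and within the second (y axis, 1 array per genotype), both on the log2 scale, with integrins in purple, laminins in green and a dashed line of equal differences. Itgb3, Lamb1, Lama2 and Itga6 lie in the upper right, Itga3 and Itga7 in the lower left, and Itga9 (0.87 and -1.46) and Itgb4 (1.40 and -0.64) in the lower right.

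Among the other matrix genes, those of the basement membrane resembled the laminins in sign. Of 18 tested basement membrane genes other than laminins, 15 had a positive fold change (median 0.68), 1 rose and none fell. The gene that rose was Hspg2, which encodes perlecan, the heparan sulfate proteoglycan that binds laminin networks; its signals were 6.04, 5.60 and 5.28 in WT and 7.26, 7.35 and 6.70 in dt27J, a difference of 1.46 (SE 0.21, adjusted p = 0.0413). Its differences within the dates were 1.49 and 1.42, whereas the median of the list was 0.69 and -0.035. Of 20 other integrin ligands, 15 had a positive fold change (median 0.54) and 2 rose. They were Ltbp1, which tethers latent TGF-beta in the matrix (1.30, SE 0.19, adjusted p = 0.0413), and Thbs1, the adhesive glycoprotein thrombospondin 1 (1.13, SE 0.19, adjusted p = 0.0472). The Thbs1 groups overlapped, since dt27J 3 at -1.08 lay below WT 1 at -0.93, and the second-date array was the lowest of each genotype. Postn, which encodes the integrin ligand periostin, stood at 1.28 (SE 0.28, adjusted p = 0.0573).

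Genes that act inside the cell or beside the integrins were split. The 27 integrin adaptors and adhesion signalling genes include talins, kindlins and the integrin-linked kinase complex. Of these genes 15 had a positive fold change (median 0.063). At an unadjusted p under 0.05 (limma) 6 were higher and 3 lower, where 12% and 15.7% of all tested probes were. None passed the threshold. The nearest were Itgb1bp2, a muscle partner of the beta1 tail (1.44, adjusted p = 0.0526), Tns3, a tensin (0.95, adjusted p = 0.0588), and Parva, a parvin (0.96, adjusted p = 0.0771). Of 24 other laminin receptors and dystroglycan complex genes, 15 had a positive fold change (median 0.28). Dmd, which encodes dystrophin, rose by 1.28 (SE 0.22, adjusted p = 0.0472), and Bcam, a laminin alpha5 receptor, stood at -1.36 (SE 0.30, adjusted p = 0.0574). Of 10 tetraspanins and other lateral partners none passed, and their median was -0.029. At an unadjusted p under 0.05 (limma) 1 was higher and 3 lower, beside the same 12% and 15.7% of all tested probes.

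Markers of the cell types in and around the ganglion differed from list to list. All 10 endothelial markers had a positive fold change (median 0.73), 1 rose (Tek, 1.63, SE 0.29, adjusted p = 0.0472), and their summed signal was 14.2 to 20.0 in WT and 20.0 to 36.6 in dt27J. Pericyte and smooth muscle markers had a median of 0.63 (8 of 10 positive, summed signal 33.1 to 50.02 in WT and 27.9 to 55.3 in dt27J), and fibroblast and meningeal markers 0.64 (10 of 12 positive, 386.6 to 700.1 and 527.6 to 1045). Of 10 myelinating Schwann cell markers 5 were positive and 2 rose, Egr2 and Gldn (median 0.16, summed signal 269.8 to 393.0 and 300.6 to 357.1), and of 10 markers of satellite glia and immature Schwann cells 4 were positive and 2 rose, Ednrb and Cdh19 (median -0.011, 376.6 to 524.7 and 333.8 to 453.7). Cdh19 was tested only because its dt27J arrays were well above background, with 1 WT array so. Sensory neuron markers had a median of -0.59 (1 of 13 positive, summed signal 879.2 to 998.2 and 640.7 to 811.8). In each of these lists every gene on the array was well above background on at least 1 array. The part of these cell types, and of the spinal cord and muscle signal described above, in the values of Itgb3, Lamb1 and the other members was not tested.

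**Figure D5:**
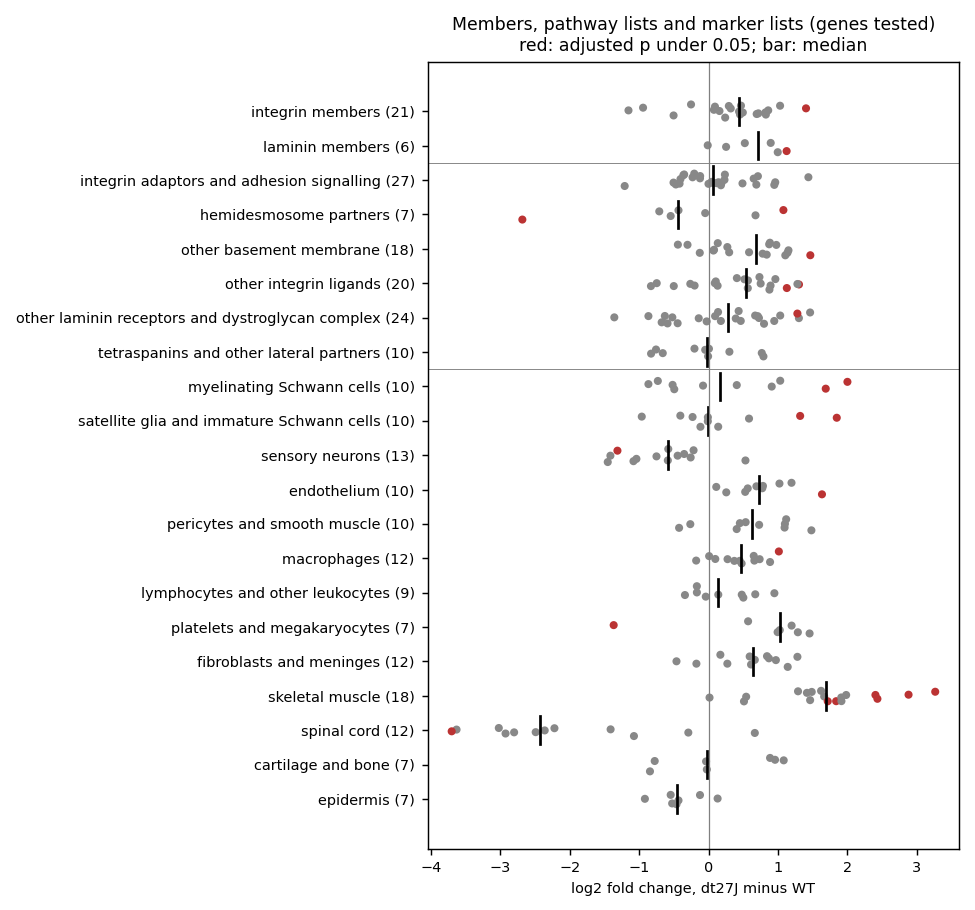
Log2 fold change (dt27J minus WT, x axis) of each tested gene in the integrin and laminin members, the pathway lists and the marker lists (rows, number of genes in brackets); red points have an adjusted p under 0.05 and the bar is the median. The laminins (median 0.71) lie near the other basement membrane genes (0.68) and the endothelial markers (0.73), the skeletal muscle list lies at 1.69 and the spinal cord list at -2.43.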

How the data were processed

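Total RNA of 6 dorsal root ganglion samples (3 WT and 3 dt27J animals) was labelled with Cy3 and each hybridised to 1 single-colour Agilent array. Per the file headers, the deposited processed signals are linear intensities, made with Agilent Feature Extraction 10.5.1.1, with background subtracted and not normalized between arrays; the deposited spot and local background medians are raw intensities. The series table deposited by the authors is on a log2 scale, with each probe centred at its median (column medians -0.0041 to 0.0053); set against the scanner values, probes well above background on all arrays gave slopes of 0.79 to 0.81, and the sources used here do not give its normalization.

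Here the processed signal was divided by its 75th percentile on that array and taken to log2 (percentile 369.5 to 580). The percentile was taken over all spots but controls, outlier spots included. Values of control and outlier spots were left out, and repeated spots were averaged. No probe was saturated. Probes were named by unversioned accession through a RefSeq table (GRCm38.p6; 24844 of 41174 probes), while the array's annotation is on mm9. Probes well above background on all 3 arrays of a genotype were tested with limma 3.58.1 in R 4.3.3 on genotype and label date, with Benjamini-Hochberg adjustment over 26248 probes and a threshold of 0.05. The interaction came from a second fit. The procedure was tested on simulated data. The number of arrays limits the precision.

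The members and lists were chosen with earlier results of these data known. Every tested member may be named, and of each other list the genes past the threshold and the 3 with the smallest p. Alternatives were normexp (also with local backgrounds over 3 times the array median replaced), quantile normalization, the series table, other filters, blocks, array weights, probe means and left-out arrays.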

Additional observations from a re-analysis of the deposited data

Results flagged for a closer look

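Itga9 was singled out because its genotype difference was not the same in both label dates. Its brighter probe read -0.048 and -0.17 in WT 1 and WT 2 and 0.88 in WT 3, against 0.77 and 0.75 in dt27J 1 and dt27J 2 and -0.58 in dt27J 3. The interaction was -2.33 (SE 0.31, adjusted p = 0.0463, limma), on 1 array per genotype in the second date, and the other Itga9 probe had an interaction of opposite sign, 0.52 (SE 0.38, adjusted p = 0.410), with differences of 0.34 in the first date and 0.86 in the second. In the authors' series table the interaction also passed for Itgb4.

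Itga2, the alpha2 chain of a collagen receptor, was singled out because 1 of its probes, which was not tested, was well above background on 2 of 3 dt27J arrays and on no WT array. Its signals were -6.13, -6.60 and -6.27 in WT and -4.72, -5.50 and -5.41 in dt27J, a difference of 1.12 with no test. The other Itga2 probe, also not tested, was well above background on 1 WT array and on no dt27J array. Its difference had the opposite sign, at -1.12.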

How the results depend on the processing

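Member calls and medians depended on the processing. Against 2 members called (838 of all tested probes), 5 were called after normexp (384), after normexp with high local backgrounds replaced (1432) and in the authors' series table (1175), and 18 with array weights (12199), for which limma reported that the weights had not converged. None was called without the filter on dim probes (0 of all probes) or without the date block (14 of all probes). At an unadjusted p under 0.05 (limma) there were 12 members and 8485 of 41086 probes without the filter. Without the date block there were 9 members and 6019 of 26248 probes. Leaving out WT 1 and WT 2, a setting chosen after the data were seen, moved the integrin median to 0.063 and the laminin median to 0.19. Leaving out 1 array at a time gave 0 to 15 member calls and 0 to 6805 calls in all. The member count was 0 without WT 1, WT 2, dt27J 1 or dt27J 2. In those fits 8 to 10 members and 4179 to 5715 of 26248 probes had an unadjusted p under 0.05 (limma). The member count was 15 without WT 3 or dt27J 3, which equals the first date alone (15, with 6805 of all probes). The integrin median stayed between 0.30 and 0.43 and the laminin median between 0.59 and 0.94 over these 6 fits, but the integrin median was 0.15 after normexp and 0.17 with high backgrounds replaced. The interaction passed for 2 members (1623 of all probes) in the series table and for 0 (405 of all probes) without the filter. Without the filter 9 members had an unadjusted p under 0.05 (limma), and the matching share of all probes was not counted.

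With the replicate number as block, 0 members and 2 of all probes passed. With that block 11 members and 5711 of 26248 probes had an unadjusted p under 0.05 (limma). Same-numbered arrays correlated at 0.219, -0.152 and 0.0625 in their deviations from the genotype means. Differently numbered arrays lay between -0.293 and 0.228. With 3 arrays per genotype these values cannot settle whether the numbers pair the animals.

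With WT 1 and WT 2 left out 15 members were positive in place of 22, and the values are the second-date differences, such as -0.64 for Itgb4, -0.51 for Itga11 and -0.21 for Itgae. Under the other settings signs turned for 7 members. Itga1 stood at -0.073 after normexp and -1.10 with array weights, Lamc3 at 0.063 after normexp, 0.15 after quantile normalization, 0.062 in the series table, 0.59 with array weights and 0.30 in the first date, Itga4 at 0.017 in the first date and 0.057 as probe mean, and Itgav at -0.023 in the first date. With 1 array left out the ranges were -0.15 to 1.31 for Itga1, -0.84 to 0.017 for Itga4, -0.14 to 0.43 for Itga8, -0.17 to 0.87 for Itga9, -0.023 to 0.48 for Itgav, -0.024 to 0.31 for Itgal and -0.38 to 0.30 for Lamc3. Signals of Itgax, Itgam, Lamc3 and the dimmer Itga4 probe near background limit what their values show, as does the single array per genotype in the second date.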
